A study of Mus musculus with 9 samples.

Results

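A set of 10 marker genes of endothelial cells was followed across RNA-seq of 4T1 tumors: Pecam1, Cdh5, Esam, Kdr, Flt1, Flt4, Tek, Tie1, Eng and Sox17. They were found by their symbols in the deposited count tables, and all 10 of them were present among 22609 listed genes. Each table held expected counts per gene, that is, read pairs summed over the exons of a gene, with a pair that matched several genes or positions divided among them. The 4T1 line is a mouse mammary carcinoma line used as a model of triple-negative breast cancer (TNBC). The tumors of all 9 libraries came from 500000 of its cells placed orthotopically in the mammary fat pad of the BALB/c strain, after 6 weeks on diet. The LFD group (3 libraries) ate a diet with 10% of its calories as fat and received vehicle, 0.3% hydroxy propyl cellulose. The HFD group (3 libraries) ate a diet with 60% of calories as fat and received the same vehicle. The HFD + EC359 group (3 libraries) ate the 60% diet and received EC359, an inhibitor of the leukemia inhibitory factor receptor (LIFR), at 5 mg/kg intraperitoneally on 5 days per week. Nothing in the sources used here gives the age of these BALB/c mice, says whether 1 library stands for 1 mouse, or describes a sort of cells, so each library is read as RNA of a whole tumor in which the vessels are those of the host.

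Endothelial cells line blood and lymph vessels, and tumors depend on vessels that sprout from those of the host. Sprouting is driven mainly by vascular endothelial growth factor (VEGF), which binds the tyrosine kinase receptors encoded by Kdr, Flt1 and Flt4, while the angiopoietins and their receptors control whether a vessel is stable or open to remodeling. The junction proteins hold neighboring endothelial cells together and set how much the vessel wall leaks. Several of these genes are also used outside the endothelium: Pecam1 by platelets and leukocytes, Eng by macrophages and stromal cells, Flt1 by macrophages and Esam by megakaryocytes. In bulk tumor RNA, fewer cells of a type and less RNA per cell cannot be told apart.

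The sequences just upstream of the transcription start are shown for 4 of the receptor genes, because Kdr, Tek and Tie1 fell with EC359 in what follows and Flt1 did not pass the test there. They are the 250 bases before the RefSeq start, taken from RefSeq annotation of GRCm38.p6 and placed on mm9 by an exact match. The Kdr window lies at chr5:76374481-76374730 on the minus strand, the Flt1 window at chr5:148537588-148537837 on the minus strand, the Tek window at chr4:94405730-94405979 on the plus strand and the Tie1 window at chr4:118162455-118162704 on the minus strand. Capitals mark matches to AGGAAG or its reverse complement CTTCCT, 1 form of the letters bound by ETS factors. They also mark AACAAT or ATTGTT, letters bound by SOX factors.
Kdr: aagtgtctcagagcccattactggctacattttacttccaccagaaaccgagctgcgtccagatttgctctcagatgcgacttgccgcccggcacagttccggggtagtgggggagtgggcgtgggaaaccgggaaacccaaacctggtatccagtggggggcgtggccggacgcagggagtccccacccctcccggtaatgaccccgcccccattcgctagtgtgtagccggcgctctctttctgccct
Flt1: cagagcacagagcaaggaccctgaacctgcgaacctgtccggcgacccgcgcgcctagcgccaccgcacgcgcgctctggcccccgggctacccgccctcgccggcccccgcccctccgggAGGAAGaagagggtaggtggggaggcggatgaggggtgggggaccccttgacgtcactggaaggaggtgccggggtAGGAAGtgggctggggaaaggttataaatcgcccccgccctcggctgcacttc
Tek: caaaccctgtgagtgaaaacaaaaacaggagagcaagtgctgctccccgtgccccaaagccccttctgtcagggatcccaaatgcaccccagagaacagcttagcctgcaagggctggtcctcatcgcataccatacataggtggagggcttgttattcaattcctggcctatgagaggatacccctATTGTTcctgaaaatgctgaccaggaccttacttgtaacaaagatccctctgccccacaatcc
Tie1: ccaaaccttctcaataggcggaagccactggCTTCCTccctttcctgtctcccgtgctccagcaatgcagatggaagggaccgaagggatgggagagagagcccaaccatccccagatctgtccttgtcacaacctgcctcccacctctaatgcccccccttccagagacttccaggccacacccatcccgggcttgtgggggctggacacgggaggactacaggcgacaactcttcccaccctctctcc
Of the 10 genes, 6 had such a window in the RefSeq table (these 4, Flt4 and Eng). Only the exact letters were searched, so shorter or other forms of an ETS site were not counted. The ETS letters in this form occurred 2 times in Flt1, 1 time in Tie1 and 2 times in Eng, and in none of the windows of Kdr, Flt4 and Tek. The same letters were found in 29.5% of all 32851 windows of this length. The SOX letters occurred 1 time, in Tek, against 9.42% of all windows. The GATA letters (AGATAA or TTATCT) occurred in none of the 6, against 9.99% of all windows, and TATAAA or TTTATA occurred 1 time, in Flt1, against 12.4%. These matches describe letters in a window and were not tested as binding sites.

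The library totals ran from 5085357 to 9751201 counts, with the lowest in the LFD group and the highest in the HFD + EC359 group. All 10 markers passed the filter on low counts, as did 13366 genes in all. Levels are given as CPM, counts brought to a common library size with TMM factors, and levels of different genes are set side by side only as RPKM, which divides CPM by the exon length in kilobases. A count of 0 would allow up to 3 counts, 0.308 to 0.59 CPM depending on the library, for counting error only. The lowest count of any marker was 28, for Sox17 in LFD replicate 3 and for Tek in LFD replicate 1. The groups differed in GC balance: low-GC genes stood 0.32 to 0.54 log2 units lower relative to high-GC genes in the LFD libraries, against 0.10 to 0.16 higher in the HFD libraries and 0.25 to 0.30 higher in the HFD + EC359 libraries, each relative to the mean of all libraries. Each fold change was therefore computed again after the trend with GC content and length was removed from each library, and the calls this changed among the named genes are given beside the results.

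The first comparison, HFD against LFD, asks how the diet-induced obese state changes the tumor. All 10 markers rose in HFD tumors (edgeR's quasi-likelihood test at an adjusted p under 0.05, by Benjamini-Hochberg over all 13366 tested genes), where 26.0% of all tested genes rose and 25.8% fell. In each of the 10, the 3 HFD libraries lay above the 3 LFD libraries, which held for 28.6% of all tested genes. The median log2 fold change of the 10 was 0.65, against 0.0071 for all tested genes. Cdh5 alone also passed the threshold of the study's methods, a fold change over 2 with an adjusted p under 0.01, which 3.03% of all tested genes passed in this direction. The second comparison, HFD + EC359 against HFD, asks what LIFR inhibition does under the high-fat diet. There 6 of the 10 fell (Tek, Sox17, Tie1, Kdr, Esam and Cdh5), where 13.9% of all tested genes fell, and in those 6 the HFD + EC359 libraries lay below the HFD libraries, which held for 20.7% of all tested genes. The other 4 markers (Flt4, Flt1, Pecam1 and Eng) did not pass the test. The median log2 fold change of the 10 was -0.33, and none passed the threshold of the methods with edgeR or with DESeq2, which 1.38% of all tested genes passed in this direction. With library totals in place of TMM factors, 11.2% of all tested genes fell and 15.7% rose in this comparison, against 13.9% and 12.7%, and the same 6 markers passed. Both comparisons use the same 3 HFD libraries, so their values for a gene are not independent of each other. The standard errors and p-values given here and below measure the spread between libraries, which was small (common biological coefficient of variation 3.63%). The sources do not say whether that is the spread between mice, so n = 3 counts libraries.

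**Figure D1:**
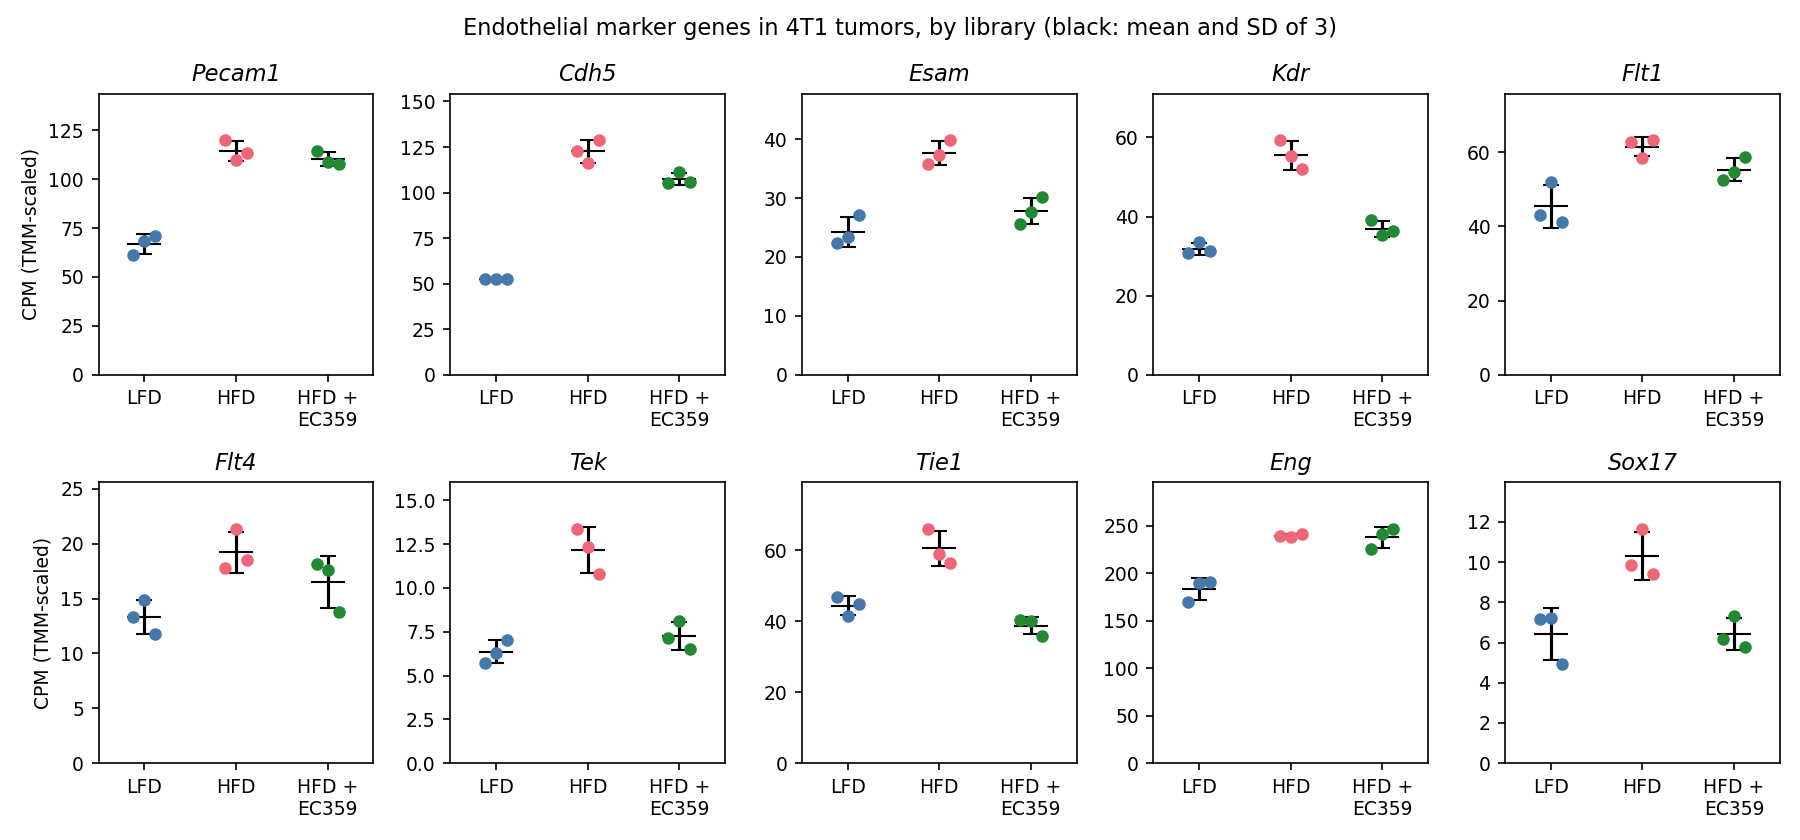
Level of each endothelial marker in CPM (TMM-scaled, y axis from 0) in the 3 libraries of the LFD, HFD and HFD + EC359 groups (x axis), 1 panel per gene, with black marks for the mean and SD of 3 libraries. The HFD points lie above the LFD points in all 10 panels, while the HFD + EC359 points lie near the HFD points for Pecam1 and Eng (238 ± 11 against 239 ± 1.55 CPM for Eng) and below them for Kdr, Tek, Tie1, Esam, Cdh5 and Sox17.

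Among the junction and adhesion genes, Cdh5 encodes VE-cadherin, the adherens junction protein by which endothelial cells hold to each other (mm9 chromosome 8, 106625525-106668402, plus strand). Its level was 52.4, 52.3 and 52.7 CPM in the LFD libraries, 122.6, 116.4 and 128.7 CPM in the HFD libraries and 105.3, 111 and 105.7 CPM in the HFD + EC359 libraries. The 3 groups did not overlap, with LFD lowest and HFD highest. Cdh5 rose 2.34-fold in HFD tumors, a log2 fold change of 1.22 ± 0.06 (SE, n = 3 per group, adjusted p = 8.5e-18 by edgeR's quasi-likelihood test), the largest rise among the 10. With EC359 it fell by 0.19 on the log2 scale (SE 0.05, adjusted p = 0.0029 by edgeR), to 0.876 of the HFD level, and it remained 2.05-fold above LFD. That fall did not pass the test when all libraries were thinned to the smallest total (log2 fold change -0.16, adjusted p = 0.0901), a setting that leaves fewer counts.

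Pecam1 encodes CD31, an adhesion molecule of endothelial junctions (chromosome 11, 106515532-106576595, minus strand). The LFD libraries held 61.4, 68.3 and 71.2 CPM, the HFD libraries 119.9, 109.9 and 113.4 CPM, and the HFD + EC359 libraries 114.3, 108.8 and 107.8 CPM. All LFD libraries were low, and the other 2 groups overlapped. Pecam1 rose 1.70-fold in HFD tumors (log2 fold change 0.77 ± 0.06, adjusted p = 1.3e-12 by edgeR). Between HFD + EC359 and HFD the log2 fold change was -0.05 (95% interval -0.15 to 0.04, adjusted p = 0.47 by edgeR), and against LFD the HFD + EC359 tumors were 1.64-fold higher.

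Esam encodes an adhesion molecule of endothelial tight junctions (chromosome 9, 37335674-37345904, plus strand). Its level was 22.3, 23.4 and 27.1 CPM in LFD, 35.8, 37.3 and 39.8 CPM in HFD and 25.6, 27.6 and 30.1 CPM in HFD + EC359. The HFD libraries stood above all others, while the treated and LFD libraries overlapped. Esam rose 1.55-fold in HFD (log2 fold change 0.63 ± 0.10, adjusted p = 2.6e-06 by edgeR) and fell by 0.43 with EC359 (SE 0.09, adjusted p = 0.00031). The 3 genes of cell contacts stood at different places in the treated tumors. Pecam1 did not pass the test against HFD, Cdh5 was slightly lower and Esam was at 0.741 of HFD.

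Among the VEGF receptors, Kdr encodes VEGFR2, the main signaling receptor for VEGF-A in blood vessels (chromosome 5, 76329299-76374453, minus strand). The LFD libraries held 30.7, 33.4 and 31.2 CPM, the HFD libraries 59.3, 55.3 and 51.9 CPM, and the treated libraries 39.1, 35.2 and 36.3 CPM. The 3 groups did not overlap, and the treated group stood closer to LFD than to HFD. Kdr rose 1.74-fold in HFD (log2 fold change 0.80 ± 0.08, adjusted p = 1.3e-09 by edgeR) and fell by 0.59 with EC359 (SE 0.08, adjusted p = 1.9e-07), to 0.663 of the HFD level. The treated tumors were 1.15-fold above LFD (adjusted p = 0.04 by edgeR), a call that 8 of 20 alternatives lost, DESeq2 (adjusted p = 0.0964) and the removal of the GC trend (adjusted p = 0.0781) among them. The other alternatives that lost it included those without LFD replicate 1 or 3 or HFD + EC359 replicate 1 or 3 (adjusted p = 0.0703 to 0.143).

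Flt1 encodes VEGFR1, which binds VEGF-A tightly and also exists as a soluble form that the gene counts do not separate (chromosome 5, 148373772-148537564, minus strand). Its level was 43.0, 52.0 and 41.2 CPM in LFD, 62.9, 58.6 and 63.2 CPM in HFD and 52.5, 54.6 and 58.7 CPM in HFD + EC359. HFD exceeded LFD in every library, and the treated libraries overlapped with HFD. The rise in HFD was 1.35-fold (log2 fold change 0.43 ± 0.08, adjusted p = 3.2e-05 by edgeR). With EC359 the log2 fold change was -0.15 (95% interval -0.29 to -0.01, adjusted p = 0.12), and among the 20 alternatives it passed the test only when the 6 libraries of the comparison were fitted alone (-0.15, adjusted p = 0.047).

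Flt4 encodes VEGFR3, the receptor for VEGF-C and VEGF-D on lymphatic and sprouting endothelium (chromosome 11, 49423181-49466241, plus strand). The LFD libraries held 13.3, 14.9 and 11.8 CPM, the HFD libraries 17.8, 21.4 and 18.5 CPM, and the treated libraries 18.2, 17.6 and 13.8 CPM. Replicate 3 of the treated group lay among the LFD libraries and replicates 1 and 2 near the lowest HFD library. Flt4 rose 1.43-fold in HFD (log2 fold change 0.52 ± 0.13, adjusted p = 0.0015 by edgeR). With EC359 the log2 fold change was -0.23 (95% interval -0.45 to 0.0007, adjusted p = 0.16), and it was -0.11 without HFD + EC359 replicate 3.

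The Tie receptors take the angiopoietin signal: Tek encodes TIE2, the receptor that binds angiopoietins, and Tie1 encodes its partner, which has no angiopoietin of its own and modulates TIE2. Tek (chromosome 4, 94405991-94541630, plus strand) was at 5.73, 6.28 and 7.05 CPM in LFD, 13.4, 12.3 and 10.8 CPM in HFD and 7.16, 8.12 and 6.50 CPM in HFD + EC359. Each HFD library lay above every other library, and the LFD and treated libraries overlapped. Tek rose 1.91-fold in HFD (log2 fold change 0.93 ± 0.17, adjusted p = 2e-05 by edgeR) and fell by 0.75 with EC359 (SE 0.15, adjusted p = 0.00017), the largest fall among the 10 except with thinned counts (Tie1) or without HFD replicate 1 (Sox17). Its rise exceeded 2-fold, and so joined Cdh5 past the threshold of the methods, when LFD replicate 3 was left out (log2 fold change 1.01) or HFD replicate 3 (1.01).

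Tie1 (chromosome 4, 118143796-118162454, minus strand) stood at 46.9, 41.6 and 44.8 CPM in LFD, 66.1, 59.1 and 56.6 CPM in HFD and 40.4, 40.1 and 36.0 CPM in HFD + EC359. HFD was again highest, and all treated libraries lay below all LFD libraries, which held for no other marker. Tie1 rose 1.37-fold in HFD (log2 fold change 0.45 ± 0.08, adjusted p = 1.6e-05 by edgeR) and fell by 0.65 with EC359 (SE 0.08, adjusted p = 4e-08), to 0.639 of the HFD level. Against LFD, the treated tumors were lower by a log2 fold change of -0.19 (adjusted p = 0.048 by edgeR). This last difference is not firm: 11 of 20 alternatives lost the call, and another 2, both with the GC and length trend removed, turned it to 0.08. The 11 included those without LFD replicate 1 or 3, HFD replicate 2 or HFD + EC359 replicate 2 or 3 (adjusted p = 0.0529 to 0.181).

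Eng encodes endoglin, a co-receptor of the TGF-beta family on endothelial cells (chromosome 2, 32502115-32538189, plus strand). Its exons overlap those of Fpgs on the opposite strand, and the counting used strand. The LFD libraries held 170.0, 189.9 and 190.3 CPM, the HFD libraries 239.3, 238 and 241.1 CPM, and the treated libraries 225.6, 241.5 and 246.7 CPM. LFD was lower in every library, and the HFD and treated libraries overlapped with the HFD libraries inside the treated range. Eng rose 1.30-fold in HFD (log2 fold change 0.38 ± 0.05, adjusted p = 2.9e-08 by edgeR), the smallest rise among the 10 as fitted. The value was 0.59 after the GC and length trend was removed, where Flt1 rose least (0.41). Flt1 also rose least with thinned counts and without LFD replicate 3, and Tie1 without LFD replicate 2. Between HFD + EC359 and HFD the log2 fold change was -0.01 (95% interval -0.09 to 0.08, adjusted p = 0.92).

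Sox17 encodes a transcription factor of arterial and remodeling endothelium and is the sole nuclear protein of the set (chromosome 1, 4481009-4486494, minus strand). Its level was 7.16, 7.22 and 4.93 CPM in LFD, 9.84, 11.7 and 9.40 CPM in HFD and 6.19, 7.33 and 5.80 CPM in HFD + EC359. The HFD libraries were highest, and the LFD and treated means were both 6.44 CPM (SD 1.30 and 0.80). Sox17 rose 1.60-fold in HFD (log2 fold change 0.68 ± 0.18, adjusted p = 0.002 by edgeR) and fell by 0.68 with EC359 (SE 0.16, adjusted p = 0.0016). Tek and Sox17 had the widest standard errors of the set.

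**Figure D2:**
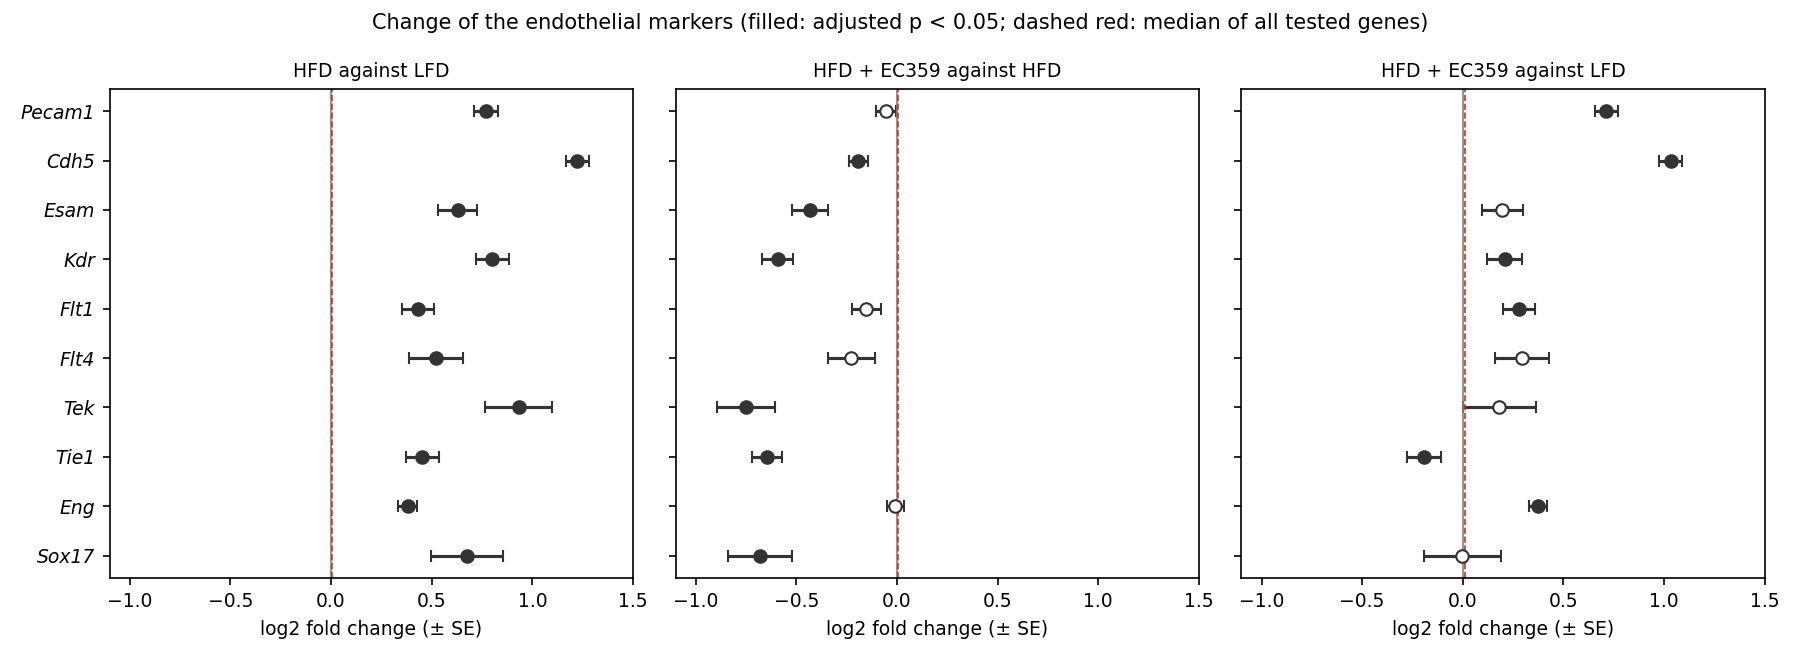
log2 fold change (x axis) of the 10 endothelial markers (y axis) for the 3 comparisons of the groups (a panel each), with bars for the standard error, filled points for an adjusted p under 0.05 and a dashed red line for the median of all tested genes. All 10 filled points lie right of 0 in the first panel (0.38 to 1.22), 6 filled points lie left of 0 in the second (-0.19 to -0.75), and in the third Pecam1 and Cdh5 lie farthest to the right (0.71 and 1.03).

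The treated tumors can also be set against LFD directly. In HFD + EC359 against LFD, 5 markers were higher (Cdh5, Pecam1, Eng, Flt1 and Kdr), where 29.2% of all tested genes were higher, and Tie1 was lower, where 29.1% were lower. The same 5 lay above LFD in every library, as did 31.8% of all tested genes, and Tie1 lay below it, as did 31.1%. Cdh5 passed the threshold of the methods, as did 3.66% of all tested genes in that direction. The share of markers called higher is read against that background, since many genes differed between these groups. Cdh5 had a log2 fold change of 1.03 ± 0.06 and Pecam1 of 0.71 ± 0.06 (adjusted p = 4.3e-16 and 2.7e-12 by edgeR), and Eng of 0.37 ± 0.05, which became 0.64 with the GC and length trend removed. Esam (0.20), Flt4 (0.29), Tek (0.18) and Sox17 (-0.003) did not pass the test in this comparison, although Flt4 passed in 7 and Esam in 4 of 20 alternatives. Flt4 passed without LFD replicate 2 (adjusted p = 0.0357) or HFD + EC359 replicate 3 (adjusted p = 0.0129), and Esam without LFD replicate 3 (adjusted p = 0.0365). With the GC and length trend removed, Flt4 was at 0.49 (adjusted p = 0.002) and Esam at 0.31 (adjusted p = 0.011), both past the test, while Tek was at 0.02.

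Per unit of length, Eng was the most abundant marker in every group, at 51.4 ± 3.25 RPKM in LFD, 67.0 ± 0.43 RPKM in HFD and 66.6 ± 3.07 RPKM in HFD + EC359 (SD, n = 3). It was followed by Pecam1 (20.3, 34.6 and 33.4 RPKM) and Cdh5 (13.2, 30.7 and 26.9 RPKM), and Tek was lowest in every group (1.36, 2.61 and 1.56 RPKM). In LFD the libraries of neighbors in this order overlapped for Cdh5 and Esam, for Esam and Tie1 and for Flt4 and Sox17. In HFD they overlapped for Kdr and Flt1 (10.2 ± 0.67 and 9.80 ± 0.42 RPKM) and for Flt4 and Sox17 (both 3.29 RPKM), and in HFD + EC359 for Tie1 and Flt1. Flt1 stood above Kdr without overlap in LFD (7.23 against 5.83 RPKM) and in HFD + EC359 (8.80 against 6.77 RPKM). The RPKM of all 10 markers summed to between 122 and 132 in LFD, between 194 and 200.4 in HFD and between 171 and 176 in HFD + EC359. Eng took 40.1%, 33.9% and 38.3% of these sums on average.

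Because the markers did not move by the same amount, ratios of RPKM within a library were compared. The 6 ratios were chosen after the values were seen, and each was tested in the 3 comparisons by a two-sided exact permutation test of 3 against 3 libraries, which cannot go below p = 0.1 (0.15 after Benjamini-Hochberg adjustment over 18 tests). The ratio of Kdr to Flt1 was 0.824, 0.742 and 0.872 in LFD, 1.09, 1.09 and 0.947 in HFD and 0.857, 0.743 and 0.713 in HFD + EC359. HFD lay above the other groups, which overlapped each other. The ratio of Tie1 to Pecam1 was 0.65, 0.519 and 0.536 in LFD, 0.469, 0.458 and 0.425 in HFD and 0.301, 0.314 and 0.285 in HFD + EC359. It was lower in HFD than in LFD and lower again in HFD + EC359, without overlap. The first step moved with the GC correction. As a difference of fitted log2 fold changes it was -0.31 as counted but -0.08 once the GC and length trend was taken out, against -0.59 and -0.53 for the second. Kdr to Pecam1 was 0.289 ± 0.02 in LFD and 0.294 ± 0.01 in HFD, which overlapped, and 0.203 ± 0.01 with EC359, below both. Cdh5 to Pecam1 was 0.652 ± 0.05 in LFD, 0.889 ± 0.05 in HFD and 0.808 ± 0.04 in HFD + EC359, without overlap. Its lowest HFD library (0.847) lay barely above its highest treated library (0.846). The difference of this ratio between HFD and LFD was 0.46 as fitted and 0.51 with the trend removed. Tek to Tie1 was lowest in LFD, where the difference from HFD went from 0.48 to 0.14 with the trend removed and that of HFD + EC359 from LFD turned from 0.37 to -0.06, while Flt4 to Kdr overlapped between all groups. Each ratio without overlap reached the smallest p the design allows (exact permutation p = 0.1, adjusted 0.15), so none passed a threshold of 0.05.

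**Figure D3:**
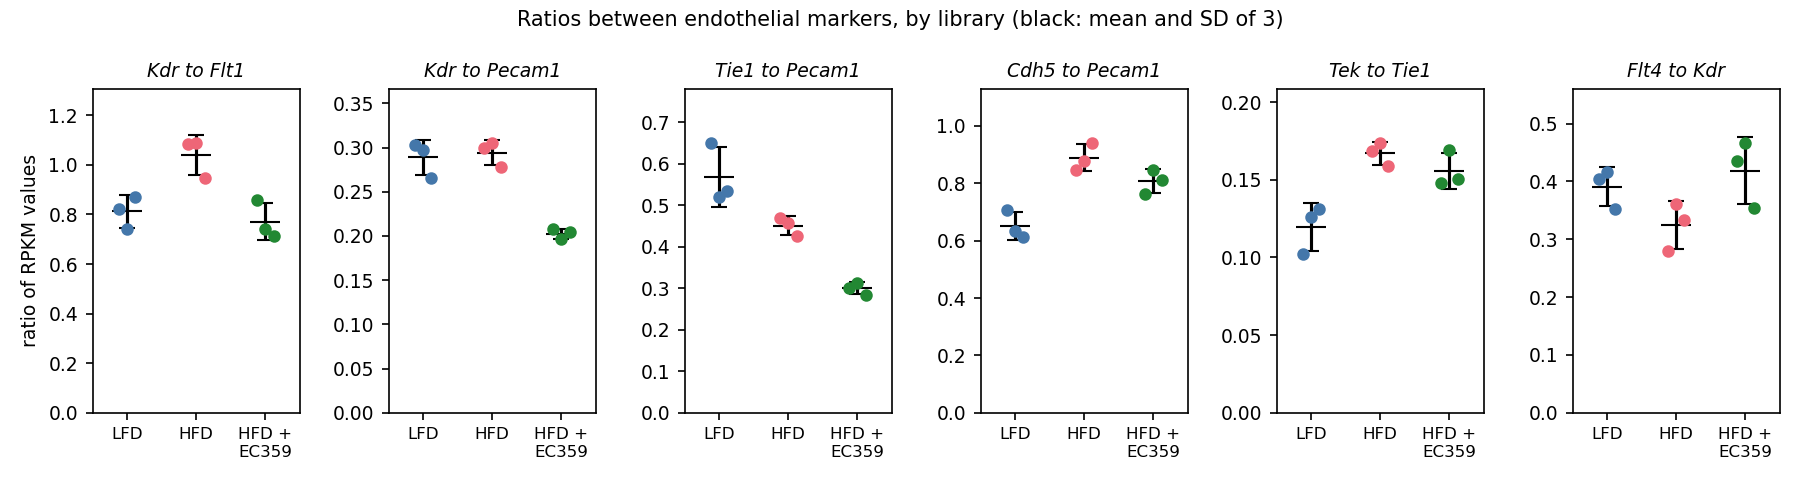
Ratio of RPKM values (y axis, from 0) for 6 pairs of endothelial markers in the 3 libraries of each group (x axis), with black marks for the mean and SD of 3 libraries. Kdr to Flt1 is highest in HFD (1.04 ± 0.08), and Tie1 to Pecam1 goes from 0.568 ± 0.07 in LFD to 0.451 ± 0.02 in HFD and 0.300 ± 0.01 in HFD + EC359.

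The wider endothelial program was read from 32 further genes, all of which were tested. In HFD against LFD, 29 of them rose and 3 did not pass (Tal1, Sox7 and Sh2d3c, named after their values were seen; Sh2d3c passed as higher with the GC and length trend removed, at 0.40, and with library totals), with a median log2 fold change of 0.72, and 12 passed the threshold of the methods. The largest rises were those of Eltd1, an adhesion G protein-coupled receptor of vessels (3.19 ± 0.67 to 14.3 ± 1.25 CPM, log2 fold change 2.13), Calcrl, the receptor for adrenomedullin (1.72), Clec14a, a lectin of tumor endothelium (1.58), and Emcn, which encodes endomucin (1.39). In HFD + EC359 against HFD, 19 fell, 1 rose and 12 did not pass, with a median of -0.39. Among all tested genes, 26.0% rose in HFD (3.03% past the threshold of the methods), and 13.9% fell and 12.7% rose with EC359. Aplnr, the apelin receptor, fell by 1.13 (29.0 ± 2.26 to 13.2 ± 0.83 CPM), and Vwf, von Willebrand factor, fell by 1.04 (34.3 ± 2.22 to 16.6 ± 1.95 CPM). Arhgef15 and Cyyr1 fell by 0.76 and 0.75, and Cyyr1 did not pass with thinned counts (-0.53, adjusted p = 0.17 by edgeR). Cd93 rose by 0.20 and Emcn had a log2 fold change of -0.03.

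The ligands of the marker receptors were read from a list of 10, of which 7 were tested. In HFD 4 of the 7 rose and 2 fell, where 26.0% of all tested genes rose and 25.8% fell. With EC359 1 of the 7 fell, near the 13.9% of all tested genes that fell. Vegfa, the ligand of Kdr and Flt1, was at 201 ± 8.18 CPM in LFD, 268 ± 9.04 CPM in HFD and 166 ± 4.08 CPM in HFD + EC359. It rose in HFD (log2 fold change 0.42 ± 0.04) and fell by 0.69 with EC359 (SE 0.04, adjusted p = 1.1e-09 and 5.4e-15 by edgeR), the sole ligand that fell with EC359. Angpt2, an angiopoietin made by endothelial cells in remodeling vessels, rose from 6.94 ± 1.76 to 13.7 ± 1.26 CPM in HFD (log2 fold change 0.96) and stood at 13.3 ± 0.93 CPM with EC359. Angpt1, the activating angiopoietin, rose in HFD from a low level (1.17 ± 0.39 to 2.44 ± 0.55 CPM, log2 fold change 1.04, adjusted p = 0.02), but 7 of 20 alternatives lost that call, among them DESeq2 and the fits without LFD replicate 1, LFD replicate 2 or HFD replicate 2 (adjusted p = 0.068 to 0.0918 by edgeR). Vegfc rose by 0.20 but did not pass without LFD replicate 2 (0.15, adjusted p = 0.0848), while Vegfb and Pgf, which bind Flt1, each had a log2 fold change of -0.36 in HFD. Those 2 falls did not pass once the GC and length trend was removed (-0.03 and -0.19), nor did the rise of Angpt1 (0.63). Figf, which encodes VEGF-D, was near 1 CPM and did not pass in either comparison, and Angpt4, Gdf2 and Bmp10 were under the filter, with Bmp10 at 0 counts in every library.

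Genes that mark types of vessel were read from further lists. Their counts are read beside the shares of all tested genes, 26.0% higher and 25.8% lower in HFD and 12.7% and 13.9% with EC359. Among tip cell genes, which mark the leading cells of sprouts, 5 of 6 rose and 1 fell in HFD, and 4 fell with EC359. Apln, the ligand of the apelin receptor, went from 96.9 ± 2.49 to 152 ± 3.06 CPM in HFD and to 101 ± 2.12 CPM with EC359 (log2 fold changes 0.65 and -0.60), and Pdgfb, which recruits pericytes, had log2 fold changes of -0.15 and -0.50. Esm1, an endothelial proteoglycan core of sprouting tips that was chosen after its values were seen, went from 1.49 ± 0.58 to 10.8 ± 1.76 CPM and then to 4.12 ± 0.80 CPM (log2 fold changes 2.81 and -1.40). The -0.15 of Pdgfb turned to 0.10 with the GC and length trend removed and did not pass without HFD replicate 3 (adjusted p = 0.0537 by edgeR).

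Among arterial genes, 3 of 5 tested rose and 1 fell in HFD, and 3 fell with EC359. Hey1, a Notch target, rose in HFD (log2 fold change 1.04) and did not pass with EC359 (-0.23). Efnb2, which encodes ephrin-B2, fell in both comparisons (-0.38 and -0.14). Its fall with EC359 did not pass without HFD replicate 1 or 3 or HFD + EC359 replicate 1 or 2 (adjusted p = 0.0955 to 0.207 by edgeR). Gja5, a connexin of arterial endothelium, and Sema3g, a semaphorin of arteries, both chosen after their values were seen, rose in HFD (1.54 and 0.80) and fell by 1.42 and 1.09 with EC359. Gja5 counts were low, at 5 to 10 per LFD library, 26 to 38 per HFD library and 10 to 16 per treated library.

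Of 5 tested venous genes, 2 rose and 1 fell in HFD, near the shares of all tested genes given above (26.0% and 25.8%), and 1 rose and 2 fell with EC359 (12.7% and 13.9% of all tested genes). Ephb4, the receptor for ephrin-B2, had log2 fold changes of -0.30 and -0.09, and Vcam1, a leukocyte adhesion molecule, of 0.09 and 0.38. The fall of Ephb4 in HFD did not pass once the GC and length trend was taken out (-0.08, adjusted p = 0.093 by edgeR), and Vcam1, which had not passed in HFD, passed as lower (-0.12, adjusted p = 0.032). With library totals Vcam1 passed as higher in HFD (0.13, adjusted p = 0.042 by edgeR), so its direction there turned on the processing. Selp, which encodes P-selectin of venules and platelets, went from 4.94 ± 1.56 to 7.52 ± 1.48 and then to 2.73 ± 0.84 CPM, a log2 fold change of 0.60 in HFD and a fall by 1.44 with EC359. Darc, the atypical chemokine receptor of venules, was counted 2 to 4 times per LFD library, 13 to 20 times per HFD library and 2 to 6 times per treated library. Selp and Darc were chosen after their values were seen, and the rise of Selp in HFD was lost in 5 of 20 alternatives, among them those without LFD replicate 3, HFD replicate 1 or HFD replicate 2 (adjusted p = 0.0632 to 0.218 by edgeR).

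Of the capillary genes, 4 of 5 written were listed in the tables and tested, of which 3 rose and 1 fell in HFD and 1 fell with EC359. Aqp1, a water channel, and Gpihbp1, which anchors lipoprotein lipase on capillaries, rose in HFD (log2 fold changes 0.68 and 0.94), as did Cd36, a fatty acid transporter also made by adipocytes and macrophages and chosen after its values were seen (1.25). With EC359 Aqp1 fell by 0.19, and Gpihbp1 (-0.14) and Cd36 (0.09) did not pass. Car4, a carbonic anhydrase of capillaries that was likewise chosen after its values were seen, fell by 0.55 in HFD from a low level (5.49 ± 0.68 to 3.71 ± 0.96 CPM), where the HFD libraries held 20 to 35 counts. That fall (adjusted p = 0.047 by edgeR) was lost in 14 of 20 alternatives, among them the removal of the trend (-0.48, adjusted p = 0.097), and 7 of which left out a library (LFD replicate 1 or 3, HFD replicate 2 or 3 or any of the 3 HFD + EC359 replicates, adjusted p = 0.0524 to 0.234). Of the lymphatic genes, 3 of 6 were tested. Lyve1, the hyaluronan receptor of lymphatic endothelium and of some macrophages, rose in HFD (0.893 ± 0.47 to 8.49 ± 1.77 CPM, log2 fold change 3.23) and fell by 1.02 with EC359, to 4.15 ± 0.68 CPM. Prox1, the defining transcription factor of lymphatic endothelium, had a mean of at most 0.454 CPM in any group and was not tested, and Pdpn, which stromal cells share, had log2 fold changes of 0.34 and -0.21 and did not pass in either comparison.

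**Figure D4:**
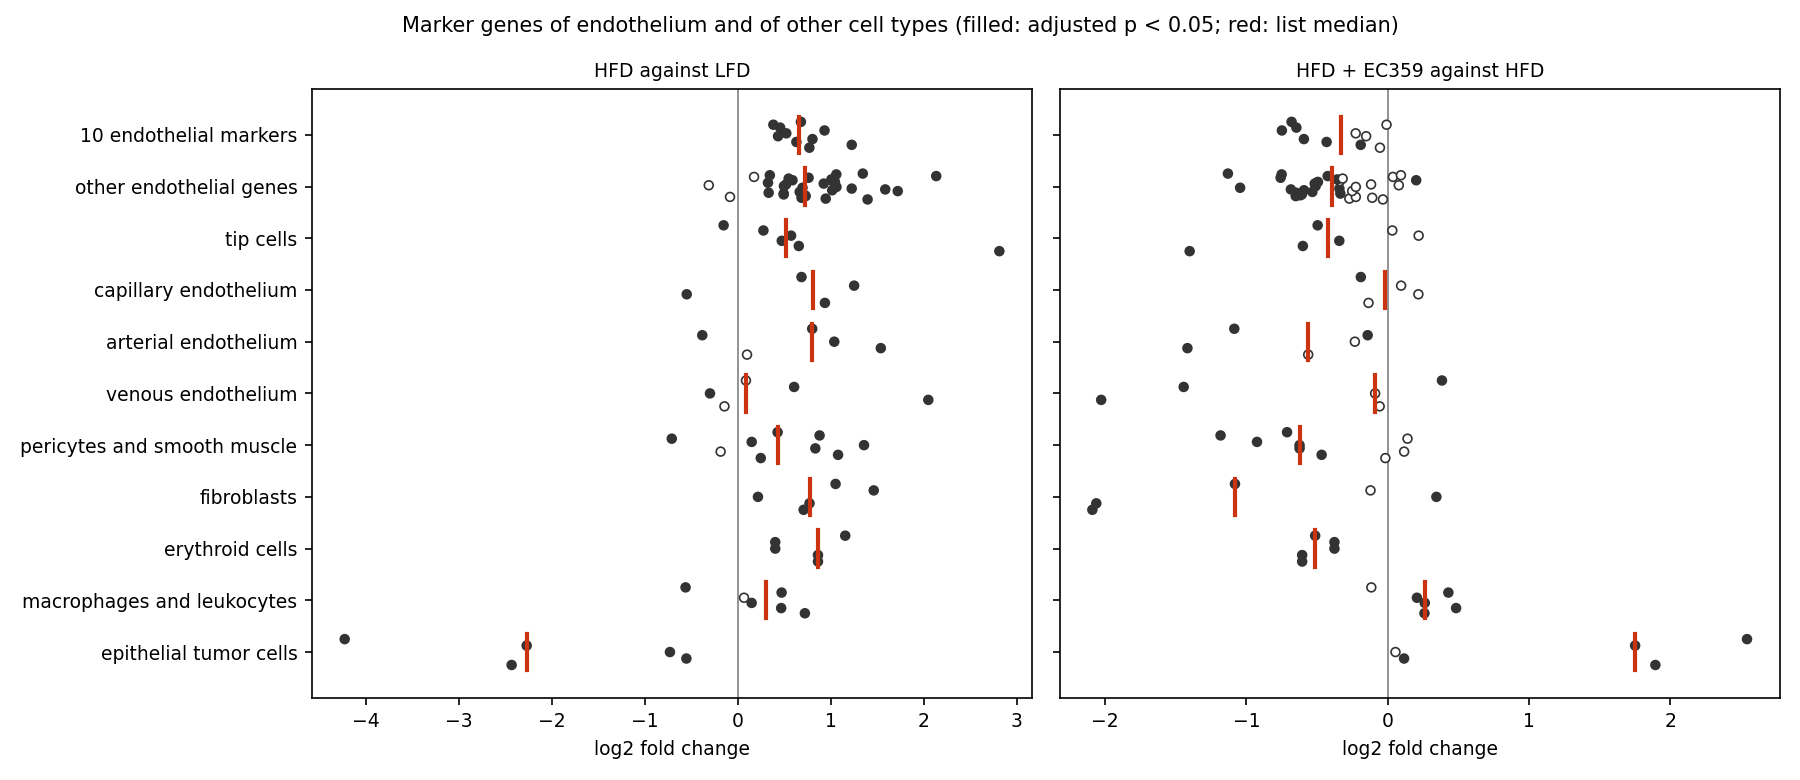
log2 fold change (x axis) of each tested gene in lists for endothelium and other cell types (y axis) in HFD against LFD and in HFD + EC359 against HFD, with filled points for an adjusted p under 0.05 and a red line for the median of the list. The medians of the endothelial lists lie right of 0 in the first panel and left of 0 in the second, as do those of the erythroid (0.86 and -0.51), fibroblast (0.77 and -1.08) and pericyte and smooth muscle (0.43 and -0.62) lists, while that of the epithelial tumor cell list lies left of 0 in the first and right of 0 in the second (medians -2.27 and 1.75).

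Markers of other cells moved between the groups too, and their part in the results was not tested. Their counts are likewise read beside 26.0% of all tested genes higher and 25.8% lower in HFD, and 12.7% and 13.9% with EC359. Besides the erythroid, fibroblast and pericyte lists, those of skeletal muscle (medians 0.48 and -0.30) and adipocytes (0.25 and -0.04) had a median above 0 in HFD against LFD and below 0 in HFD + EC359 against HFD. Only 3 adipocyte genes were tested. Of these, 1 rose in HFD and none passed with EC359, where their log2 fold changes ran from -0.09 to 0.99. Of the 9 tested pericyte and smooth muscle genes, 7 rose and 1 fell in HFD, and 6 fell with EC359. Pdgfrb, which defines pericytes, had log2 fold changes of 0.25 and -0.02, and Notch3 of 0.15 and -0.93. The rise of Notch3 was lost without LFD replicate 2 or 3 or HFD replicate 1 or 3 (adjusted p = 0.0704 to 0.221 by edgeR), and it was 0.35 with the GC and length trend removed. The summed level of the pericyte list ran from 494 to 504 CPM in LFD, from 604 to 608 CPM in HFD and from 499 to 509.5 CPM in HFD + EC359.

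All 5 erythroid genes rose in HFD and fell with EC359, and their sum was 162 to 170.3 CPM in LFD, 263 to 289 CPM in HFD and 188 to 197 CPM with EC359. Hba-a1 and Hba-a2 had the same count in every library, as had Hbb-b1 and Hbb-b2, so the 5 genes amount to 3 measurements. Of the 6 macrophage and leukocyte genes, which can share Pecam1, Eng and Flt1 with endothelium, 4 rose and 1 fell in HFD and 5 rose with EC359, with sums of 627 to 633, 691 to 708 and 814 to 842 CPM. Csf1r, the macrophage growth factor receptor, had log2 fold changes of 0.15 (0.24 with the trend removed) and 0.26. The platelet list summed to 75.3 to 83.7 CPM in LFD, 53.5 to 58.3 CPM in HFD and 46.4 to 48.4 CPM with EC359. Only 2 of its 5 genes were tested, with Gp9 and Gp1ba under 1 CPM in every library. In HFD 1 of the 2 fell. With EC359 1 fell (log2 fold change -0.34) and the other did not pass (0.25).

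Fibroblast genes rose in HFD (5 of 5). With EC359, 3 of 5 fell and 1 rose (log2 fold change 0.34). Col1a1 had log2 fold changes of 0.71 and -2.09 and Col1a2 of 0.77 and -2.06. The 5 epithelial tumor cell genes all fell in HFD, with sums of 1820 to 1955 CPM in LFD, 743 to 754 CPM in HFD and 997 to 1029 CPM with EC359. Krt8 and Krt18, keratins of the tumor cells, had log2 fold changes of -0.55 and -0.73 in HFD, and that of Krt8 was -0.34 with the trend removed. The summed adipocyte list was at most 25.6 CPM in any library, and its defining genes Adipoq and Lep were under 1 CPM in every library. Fabp4, which capillary endothelium and adipocytes share, rose in HFD (log2 fold change 1.66) and had a log2 fold change of -0.04 with EC359. Of the 5 epidermis genes, 1 rose and 3 fell in HFD and 4 rose with EC359 (Krt1 -0.99 and 0.49, Krt10 0.06 and -0.05). Of the 5 skeletal muscle genes, 3 rose in HFD and 3 fell with EC359 (Acta1 -0.12 and -0.30, Myh4 0.53 and -1.47). The fall of Acta1 was lost without HFD replicate 1 or 3 or HFD + EC359 replicate 1 (adjusted p = 0.061 to 0.108 by edgeR).

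The genes most like the markers in pattern were found by Pearson's correlation over the 9 libraries between a gene's log2 CPM and the mean of the standardized log2 CPM of the 10 markers, which is a description over libraries that share 3 group levels. The 8 most alike were Ptprb (r = 0.988), Lpar1 (0.985), Rdh10 (0.985), Ahr (0.984), Ftl1 (0.983), Dpysl3 (0.982), Lpl (0.981) and Prex2 (0.981). Ptprb encodes VE-PTP, an endothelial phosphatase that acts on TIE2 and VE-cadherin, and was the sole one of them in the list of 32. It was at 25.6 ± 2.04 CPM in LFD, 53.0 ± 2.44 CPM in HFD and 37.7 ± 2.49 CPM in HFD + EC359. Of the 32 endothelial genes, 22 were among the 668 genes (5% of those tested) with the highest correlation. The median r of the 32 was 0.873 against 0.025 for all genes outside the markers. These values largely follow from the rises and falls given above, in a list chosen with earlier results known, and are not separate evidence. Within the set, the correlation of a marker with the mean of the other 9 was highest for Kdr (0.952) and lowest for Tie1 (0.607).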

How the data were processed

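RNA-seq was carried out by the authors on tumors of 4T1 cells. The stranded mRNA libraries numbered 9, 3 each from the LFD, HFD and HFD + EC359 groups. For every gene the authors deposited an expected count of read pairs, not normalized. Per the file headers they were made with featureCounts 1.5.0-p1 on mm9, reverse-stranded, with a minimum mapping quality of 2 and fractions for pairs that matched several genes or positions. The submitters' processing notes name HISAT2 2.1.0 and featureCounts, while the methods of the paper name TopHat2, HTSeq and DESeq, so the aligner is not settled by the sources used here. Groups came from the sample titles, and p-values measure the spread between these libraries, which need not be that between mice.

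Expected counts were rounded to whole numbers, filtered with filterByExpr by group and scaled with TMM factors in edgeR 4.0.16 (R 4.3.3). One quasi-likelihood model of all 9 libraries gave the 3 comparisons, with Benjamini-Hochberg adjustment over 13366 tested genes and a common biological coefficient of variation of 3.63%. Pairs of libraries within a group had a mean chi-square of 1.36 to 3.10 over genes, against 1 for counting noise. The totals of 5085357 to 9751201 counts limit the precision of genes near 1 CPM. RPKM used the exon lengths in the count tables, and GC content the mm9 sequence. Ratios were tested with SciPy 1.17.1. Promoter windows came from RefSeq. The edgeR fit of HFD against LFD, with and without removal of the GC and length trend, was tested on simulated counts. The other steps were not.

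The markers and all gene lists were chosen with earlier results of these data known. The genes named are the 10 markers, the 4 genes with the largest change in each direction among the other endothelial genes past the threshold, all ligands, the 2 genes of each other list with the highest CPM and the 8 genes most alike in pattern, and any other is marked as chosen after its values were seen, apart from defining markers of other cell types at a low level (Prox1, Gp9, Gp1ba, Adipoq and Lep) and the paired globin genes, which were also chosen with their values seen. In the capillary list, 4 of 5 symbols matched. The alternatives were DESeq2 1.42.0, RLE factors, library totals, 2 other filters, the 6 libraries of a comparison alone, a replicate block, removal of the GC and length trend (mgcv 1.9.3) with and without the block, unrounded counts, counts thinned to the smallest total, and each library left out in turn.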

Additional observations from a re-analysis of the deposited data

How the results depend on the processing

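Over 30 fold changes of the markers and 20 alternatives, 553 of 600 values kept their direction and side of the threshold, 20 lost the call, 12 gained one and 15 changed sign. In HFD against LFD all 10 markers passed under every alternative, and the median log2 fold change was 0.54 with thinned counts. The number past the threshold of the methods was 1 to 2 when a library was left out (2, with Tek, without LFD replicate 3 or HFD replicate 3). Of all tested genes, 13.9% fell in HFD + EC359 against HFD as fitted, 9.90% with thinned counts and 16.9% with its 6 libraries alone. In that comparison 5 to 7 markers passed, with 5 under thinning, which leaves fewer counts, and 7 with the 6 libraries alone. There the log2 fold change of Eng, which had not passed, turned to 0.0239 with library totals, 0.0513 and 0.0483 once the trend with GC content and length was removed (without and with the replicate block) and 0.0046 with thinned counts, and ran from -0.0402 to 0.0274 with a library left out. In HFD + EC359 against LFD, 4 to 7 markers passed in either direction, where 29.2% of all tested genes were higher and 29.1% lower as fitted. Tie1 turned to 0.0844 and 0.0843 with the trend removed (without and with the replicate block). Sox17, at -0.003, took 0.0713 with library totals, 0.00467 with all genes of at least 1 count, 0.0028 with at least 10 counts in every library, 0.0109 with the replicate block and -0.164 to 0.0958 with a library left out. The cause of these changes was not tested.

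The same-numbered libraries of different groups deviated from their group means with correlations of -0.030 to 0.017. These values gave no sign that the numbers pair the samples, but counting noise could hide a weak pairing. With the replicate block, 10, 6 and 7 markers passed in the 3 comparisons. Flt4 in HFD + EC359 against LFD was the one that changed (log2 fold change 0.30, adjusted p = 0.0383 by edgeR). In that comparison, 29.1% of all tested genes were higher and 29.0% lower with the block.

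Of the other genes named, several turned sign, and of these Pdgfb alone had passed the test in that comparison. In HFD against LFD, Pdgfb turned to 0.101 and 0.100 and Vcam1 to -0.122 and -0.121 with the trend removed (without and with the replicate block), and Figf ran from -0.526 to 0.148 with a library left out. In HFD + EC359 against HFD, Vegfb turned to 0.00614 with library totals, 0.0968 and 0.0986 with the trend removed and 0.0566 with thinned counts, Angpt2 to 0.00495 with library totals and Emcn to 0.00404 with thinned counts. With a library left out, Vegfb ran from -0.0641 to 0.0405, Angpt2 from -0.0949 to 0.0391, Emcn from -0.115 to 0.0217, Angpt1 from -0.00945 to 0.313, Figf from -0.0681 to 0.697 and Pgf from -0.0029 to 0.11. In HFD against LFD, Acta1 turned to 0.117 and 0.124 with the trend removed, and with a library left out Krt10 ran from -0.0334 to 0.119 and Sox7 from -0.187 to 0.0473. In HFD + EC359 against HFD, Pdgfrb turned to 0.0157 with library totals, 0.0205 and 0.0205 with the trend removed and 0.0218 with thinned counts, Cd36 to -0.00967 and -0.00767 with the trend removed, and Fabp4 to 0.0247 and Sh2d3c to -0.112 with thinned counts. There, with a library left out, Fabp4 ran from -0.120 to 0.0142, Krt10 from -0.103 to 0.0121 and Tal1 from -0.0743 to 0.197. DESeq2 called 8.37% of all tested genes higher in HFD + EC359 against HFD, against 12.7% with edgeR.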
